A study of Mus musculus with 9 samples.

Results

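The genes described here are 40 sensors, signalling proteins and effectors of the antiviral response to type I interferon. They were taken by symbol from the 54361 genes of the deposited table, and all 40 were among the 13642 genes with a mean of at least 5 normalized counts over the 9 libraries, which were tested. The libraries came from lungs of C57BL/6 mice and are labelled eosinophils, granulocytes of type 2 immunity, sorted to a purity above 98%. Libraries labelled naive (n = 3) are from mice that received only saline. Those labelled Siglec-F high (n = 3) and Siglec-F int (n = 3), below high and int, are from mice whose lungs were seeded by PyMT tumour cells injected into the tail vein, and they differ in the amount of the lectin Siglec-F on the sorted cells. PyMT is the polyoma middle T antigen, an oncogene used to drive mammary tumours in mice. The age of the mice is not given in the sources used here. Each library pools 3 to 4 mice, so n counts pools and p-values measure the spread between pools.

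Type I interferons are cytokines that cells release on sensing viral or displaced nucleic acid. They bind the receptor chains IFNAR1 and IFNAR2, whose kinases phosphorylate STAT proteins. With IRF9 these form the factor ISGF3, which binds the interferon-stimulated response element (ISRE) of its target genes. The products of those genes bind foreign RNA, degrade it, block translation or stop viral entry and release, and some of them, such as IRF7 and the RNA sensors, feed back on interferon production. In the lung, macrophages, monocytes, dendritic cells, epithelium and stroma can all mount this response, so the genes mark a state of a cell and not its type.

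Several measurements bear on every result below. The libraries held from 2205949 to 12495639 reads, and 1 read was worth 2.61 normalized counts in naive library 2 and 0.316 in int library 3. Of 12 eosinophil markers, 6 reached the filter, none was called in either comparison with naive, and Ccr3, Cebpe and Prg3 were at 0 in all naive libraries. Pigment cell markers went against the labels of the naive libraries. All 12 fell in both comparisons with naive, and their summed level was 65408 to 73664 normalized counts in the naive libraries, 212 to 1101 in high and 371 to 714 in int. Directions are therefore between libraries as labelled, and in bulk RNA fewer cells of a type cannot be told apart from less RNA per cell. High library 1 stood apart from the rest of its group (correlations of 0.705 and 0.763 over genes, against 0.920 between high libraries 2 and 3), and int library 2 stood apart in the interferon genes, as described below.

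The ISRE is the sequence by which ISGF3 finds its targets, so the promoters of the members were read from RefSeq (GRCm38.p6), whose table holds 33 of the 40. It lists none for Dhx58, Zbp1, Usp18, Oas2, Mx1, Mx2 and Rtp4. The window ran from 250 bases before to 50 bases after each start, and the motif searched was the ISRE core, made of GAAA, any 2 bases and GAAA again, on either strand. It was present in 17 of the 33 members (51.5%) and in 3.99% of the 27025 genes of the table. A longer form, in which the core is followed by CT, was present in 10 members (30.3%) and in 0.303% of all genes, and every match to it also counts as a core. The GAS element TTCNNNGAA, known from the response to interferon-gamma, was present in 7 members (21.2%) and in 9.55% of all genes. A match describes the letters only.

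The promoters of 4 members are shown because they hold a core and stand for different roles, those with the smallest adjusted p among members described in full. Each runs 5′ to 3′ along the gene from 250 bases before the start to 30 bases after it, with the ISRE cores in capitals. The Slfn5 window is chr11:82951852-82952131 on the plus strand, that of Ifit1 chr19:34640639-34640918 on the plus strand, that of Ifitm3 chr7:141010715-141010994 on the minus strand and that of Trim30a chr7:104465164-104465443 on the minus strand.
Slfn5: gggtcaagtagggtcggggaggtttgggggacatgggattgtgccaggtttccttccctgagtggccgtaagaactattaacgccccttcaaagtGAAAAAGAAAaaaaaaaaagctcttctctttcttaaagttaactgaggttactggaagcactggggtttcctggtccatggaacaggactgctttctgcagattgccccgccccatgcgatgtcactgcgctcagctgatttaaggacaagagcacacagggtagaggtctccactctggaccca
Ifit1: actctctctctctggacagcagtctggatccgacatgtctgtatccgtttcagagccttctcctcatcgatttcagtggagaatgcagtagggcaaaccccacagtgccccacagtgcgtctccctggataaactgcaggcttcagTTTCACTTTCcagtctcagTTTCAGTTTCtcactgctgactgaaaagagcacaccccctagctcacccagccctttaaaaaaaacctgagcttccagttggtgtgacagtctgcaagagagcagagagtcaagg
Ifitm3: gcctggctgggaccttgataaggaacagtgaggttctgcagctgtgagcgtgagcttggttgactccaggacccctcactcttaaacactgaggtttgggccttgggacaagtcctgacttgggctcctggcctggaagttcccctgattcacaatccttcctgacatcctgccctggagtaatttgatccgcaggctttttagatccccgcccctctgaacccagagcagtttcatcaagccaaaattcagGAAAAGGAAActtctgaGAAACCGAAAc
Trim30a: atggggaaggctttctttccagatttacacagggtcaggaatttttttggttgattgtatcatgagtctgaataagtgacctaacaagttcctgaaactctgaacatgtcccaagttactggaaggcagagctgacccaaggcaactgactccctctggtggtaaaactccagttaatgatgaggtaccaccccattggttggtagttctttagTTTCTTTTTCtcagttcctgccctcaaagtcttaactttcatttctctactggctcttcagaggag

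Ifit1 carries its cores close to each other, upstream of the start and on the opposite strand, so that each reads as TTTC, 2 bases and TTTC. Slfn5 has a single core on the gene's own strand, farther upstream of the start listed by RefSeq. That start and the whole window lie inside the span of Slfn5 given below, which is from GENCODE. In Ifitm3 both cores lie just downstream of the listed start, and a GAS match overlaps the second of them. The core of Trim30a lies upstream on the opposite strand, and its second listed promoter holds another. Among the members with a listed promoter, 17 were called higher than naive in at least 1 comparison below, and 10 of these held a core. Of the 16 called in neither, 7 held one, namely Stat2, Isg15, Ifit3b, Oas1a, Oas1g, Ifitm2 and Bst2.

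Interferon antiviral genes were higher in the tumour-bearing groups than in the libraries labelled naive, and none was called lower. With all 9 libraries more members were called in int than in high, an order that reversed without int library 2. No member was called between high and int. In high, 15 of the 40 members rose at an adjusted p below 0.05, where 14.7% of all genes tested were called higher and 16.6% lower. In int, 21 rose, where 12.0% of all genes were called higher and 10.3% lower. The median log2 fold change of the members was 1.06 in high and 1.85 in int, and that of all genes tested was -0.11 and -0.02. The fold changes of 32 members were above 0 in high and those of 39 in int. At an unadjusted p below 0.05 the counts were 19 members in high, where 45.1% of all genes passed, and 27 in int, where 36.8% did. All 3 high libraries lay above all 3 naive libraries for 17 members (20.2% of all genes) and below them for 1, Oas1a (26.3%). All 3 int libraries lay above naive for 29 members (23.3%) and below for none (27.6%). Both comparisons use the same naive libraries, so their values are given side by side.

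**Figure D1:**
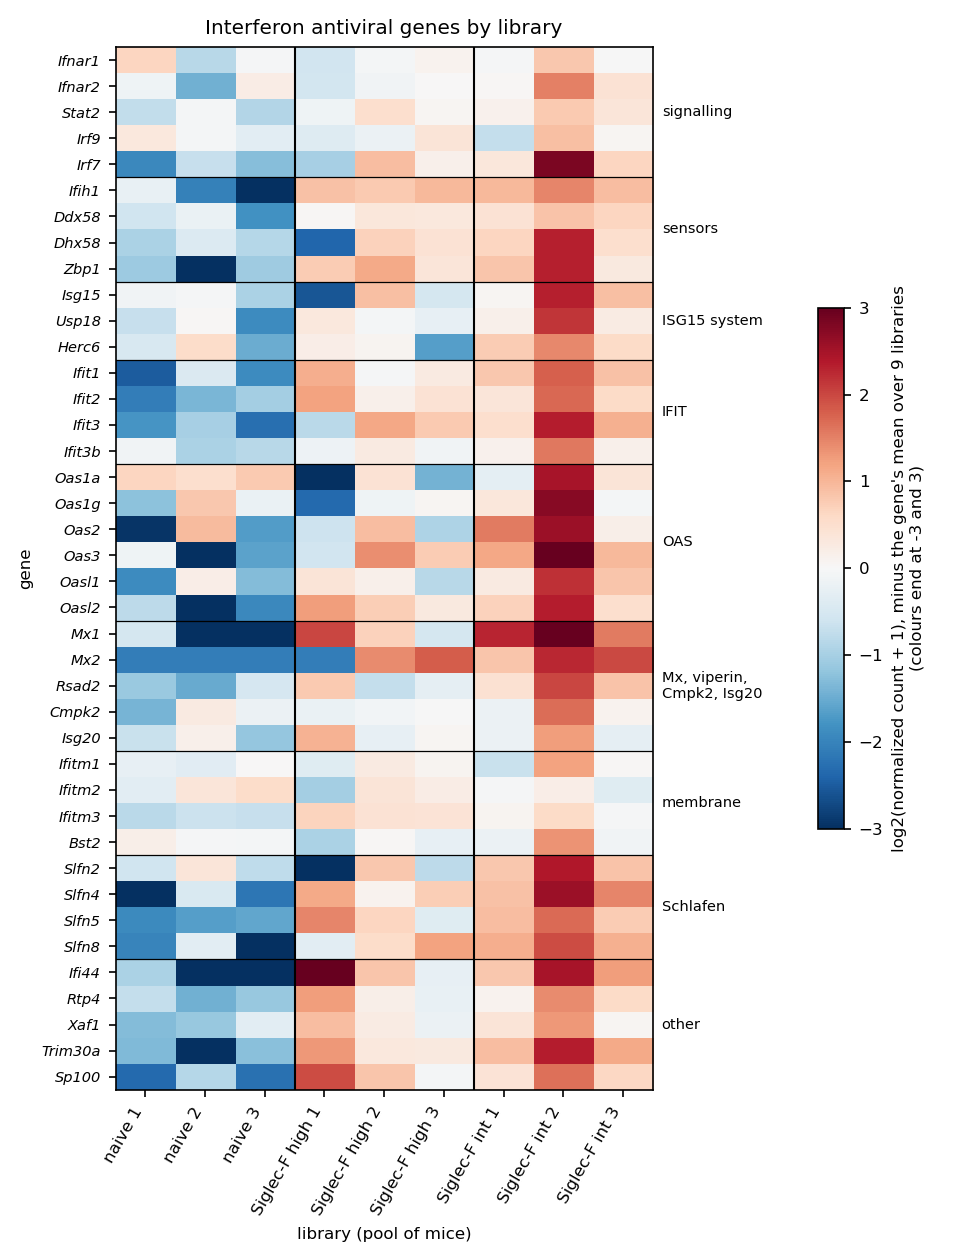
Heat map of the 40 members (vertical axis, grouped by role) in the 9 libraries (horizontal axis), coloured by log2(normalized count + 1) minus the gene's mean over the libraries, with colours ending at -3 and 3. Int library 2 is the reddest column in nearly every line, the naive columns are mostly blue, and high library 1 mixes both.

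Values below are normalized counts in libraries 1, 2 and 3 of a group, in that order. Fold changes are limma's, on the log2(value + 1) scale and relative to naive, ± SE, and the added 1 shrinks them where values are low. Coordinates are those of GRCm38.

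Among the 5 signalling members, only Irf7 was called, and only in int. Ifnar1 (ENSMUSG00000022967.13; chromosome 16, 91485238 to 91507441), a chain of the interferon receptor, stood at 44.7, 15.6 and 27.6 in naive, 18.6, 27.4 and 30.7 in high and 27.9, 51.0 and 28.1 in int. All 3 groups overlapped, and its log2 fold changes were -0.10 ± 0.56 in high (adjusted p = 0.906) and 0.34 ± 0.56 in int (adjusted p = 0.691). The other chain, Ifnar2 (ENSMUSG00000022971.18; chromosome 16, 91372783 to 91405589), stood at 52.8, 20.8 and 67.7 in naive, 39.5, 53.7 and 58.0 in high and 59.6, 166 and 78.4 in int. High and naive overlapped fully, while int library 2 was far above the rest, and the fold changes were 0.23 ± 0.55 (adjusted p = 0.767) and 1.11 ± 0.55 (adjusted p = 0.175). Stat2 (ENSMUSG00000040033.16; chromosome 10, 128270559 to 128292849), the subunit of ISGF3 that carries its activation domain, stood at 49.3, 80.8 and 45.1 in naive, 75.7, 118 and 87.0 in high and 90.7, 144 and 107 in int. Every int library was above every naive one, yet the change in int was 0.97 ± 0.40 and missed the threshold (adjusted p = 0.104), and that in high was 0.69 ± 0.40 (adjusted p = 0.196). Stat2 passed in int with DESeq2 (log2 fold change 1.09) and without high library 1 (0.97), with adjusted p of 0.0338 to 0.26 over all settings.

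Irf9 (ENSMUSG00000002325.15; chromosome 14, 55603571 to 55610030), the DNA-binding subunit of ISGF3, stood at 283, 219 and 184 in naive, 173, 203 and 299 in high and 138, 427 and 239 in int. Its groups overlapped throughout, with fold changes of -0.04 ± 0.43 in high (adjusted p = 0.956) and 0.10 ± 0.43 in int (adjusted p = 0.884). Irf7 (ENSMUSG00000025498.15; chromosome 7, 141262706 to 141266481), the factor that amplifies interferon-alpha transcription, stood at 55.0, 133 and 87.7 in naive, 106, 410.5 and 239 in high and 273, 1511 and 336 in int. Int was above naive in every library, and its library 2 held several times the level of any other. The change in int was 2.57 ± 0.68 (adjusted p = 0.0221) and that in high 1.33 ± 0.68 (adjusted p = 0.15). The int call of Irf7 was lost without naive library 1 or 3 or int library 2 (log2 fold changes 2.25, 2.58 and 1.80, adjusted p 0.000117 to 0.0814 over all settings). In high, Irf7 passed with a replicate block (1.33) and without both high library 1 and int library 2 (1.85, adjusted p 0.0125 to 0.35 over all settings). Irf9 shares its span with Rnf31, Irf7 with Phrf1 on the other strand and Ifnar2 with a predicted transcript, and whether counting used the strand is not given in the sources used here.

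Sensors of foreign nucleic acid rose in both tumour-bearing groups, 2 of 4 in high and 3 of 4 in int. Ifih1 (ENSMUSG00000026896.14; chromosome 2, 62595798 to 62646255), which encodes the RNA sensor MDA5, stood at 20.6, 5.21 and 0.840 in naive, 45.0, 42.4 and 48.6 in high and 48.3, 68.7 and 47.1 in int. Its 6 libraries from tumour-bearing mice were close to each other and all above naive, where the libraries differed widely on 21 reads in all. The fold changes were 2.88 ± 0.79 in high (adjusted p = 0.0206) and 3.13 ± 0.79 in int (adjusted p = 0.0184). Zbp1 (ENSMUSG00000027514.14; chromosome 2, 173206612 to 173218923), a sensor of Z-form nucleic acid that can trigger necroptosis, stood at 48.2, 7.82 and 48.5 in naive, 175, 227 and 132 in high and 185, 527 and 127 in int. Every tumour-bearing library was above every naive one, by 2.66 ± 0.71 in high (adjusted p = 0.0189) and 3.07 ± 0.71 in int (adjusted p = 0.0128). Ddx58, which encodes RIG-I, was called in int alone (1.52 ± 0.42, adjusted p = 0.0255), and its change in high was 1.096 ± 0.42 (adjusted p = 0.0659). Dhx58, which encodes LGP2, was called in neither, at 0.33 ± 0.82 and 1.90 ± 0.82 (adjusted p = 0.779 and 0.119). The high call of Ifih1 was lost without naive library 2 or 3 or high library 3 (log2 fold changes 2.87, 1.996 and 2.83), without both high library 1 and int library 2 (2.89) and in a fit of only the groups compared (adjusted p 0.00738 to 0.0665 over all settings). Its int call was lost without any 1 int library (3.21, 2.96 and 3.22, adjusted p 0.00485 to 0.0646). Zbp1 lost its high call without naive library 2 (1.83, adjusted p 0.00169 to 0.0502) and its int call without int library 2 (2.48, adjusted p 5.86e-05 to 0.0524). The int call of Ddx58 was lost without naive library 3 (1.05) or any 1 int library (1.42 to 1.63), and Ddx58 was called in high without naive library 2 (1.43), as was Dhx58 in int without high library 1 (1.90). DESeq2 also called Ddx58 in high, edgeR and DESeq2 called Dhx58 in int, and without both libraries Dhx58 was called in high and int.

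Genes of the ISG15 system, a ubiquitin-like modifier with its protease and ligase, were called in neither comparison. Isg15, the modifier itself, fell outside the rule for naming and is given because it heads the pathway. It stood at 114, 119.8 and 63.5 in naive, 19.7, 230.3 and 84.4 in high and 127, 622 and 229 in int. High ran from the lowest library of all 9 to well above naive, while int lay above naive throughout, and the fold changes were -0.37 ± 0.81 (adjusted p = 0.743) and 1.45 ± 0.81 (adjusted p = 0.222). Usp18 (ENSMUSG00000030107.10; chromosome 6, 121245906 to 121270917), which removes ISG15 and also restrains the interferon receptor, stood at 18.4, 31.3 and 7.52 in naive, 38.4, 29.2 and 25.6 in high and 33.8, 138 and 36.4 in int. Only int cleared the naive range, by 1.70 ± 0.69 (adjusted p = 0.102), a difference that passed with DESeq2 (2.03, adjusted p 0.0268 to 0.331 over all settings), and the change in high was 0.86 ± 0.69 (adjusted p = 0.35). Herc6 (ENSMUSG00000029798.11; chromosome 6, 57581000 to 57664632), the main ISG15 ligase of the mouse, stood at 26.4, 54.7 and 12.5 in naive, 42.8, 39.4 and 11.1 in high and 63.3, 102 and 56.0 in int. High and naive overlapped and int lay just above both, with fold changes of 0.02 ± 0.68 (adjusted p = 0.988) and 1.40 ± 0.68 (adjusted p = 0.162). Of the 50-base stretches of the Herc6 transcript, 23.8% also occur in the predicted gene Gm45193.

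IFIT proteins bind viral RNA and block its translation, and 3 of the 4 IFIT genes rose in both groups. Ifit1 (ENSMUSG00000034459.8; chromosome 19, 34640871 to 34650009) stood at 39.0, 167 and 60.1 in naive, 481, 218 and 269.5 in high and 396, 786 and 415 in int. Naive library 2 was the highest naive library and still below every other, and the fold changes were 2.04 ± 0.54 in high (adjusted p = 0.0176) and 2.77 ± 0.54 in int (adjusted p = 0.0058). Ifit3 (ENSMUSG00000074896.3; chromosome 19, 34583531 to 34588731), a partner of Ifit1 in RNA binding, stood at 42.4, 72.9 and 30.1 in naive, 83.4, 331 and 253 in high and 208, 756 and 312 in int. High library 1 lay just above the naive range and the other 5 well above it, with fold changes of 2.05 ± 0.61 (adjusted p = 0.0289) and 2.99 ± 0.61 (adjusted p = 0.00745). Ifit2 rose by 2.09 in high and 2.37 in int (adjusted p = 0.0174 and 0.0125). The close copy Ifit3b was at 0.63 ± 0.47 and 1.25 ± 0.47 (adjusted p = 0.319 and 0.0815), and edgeR and DESeq2 called it higher in int. Ifit3 and Ifit3b share 51.2% and 45.0% of their 50-base stretches, so the split of reads between them is uncertain. The high call of Ifit1 was lost without naive library 1 or 3 (1.59 and 1.90, adjusted p 0.00252 to 0.064 over all settings). That of Ifit3 was lost without naive library 1 or 3 or high library 2 or 3 (2.004, 1.76, 1.66 and 1.85), with no filter, with no variance trend and in a fit of only the groups compared (adjusted p 0.00135 to 0.0936). Ifit2 lost its high call without naive library 1 (1.79) and its int call without int library 2 (1.95).

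**Figure D2:**
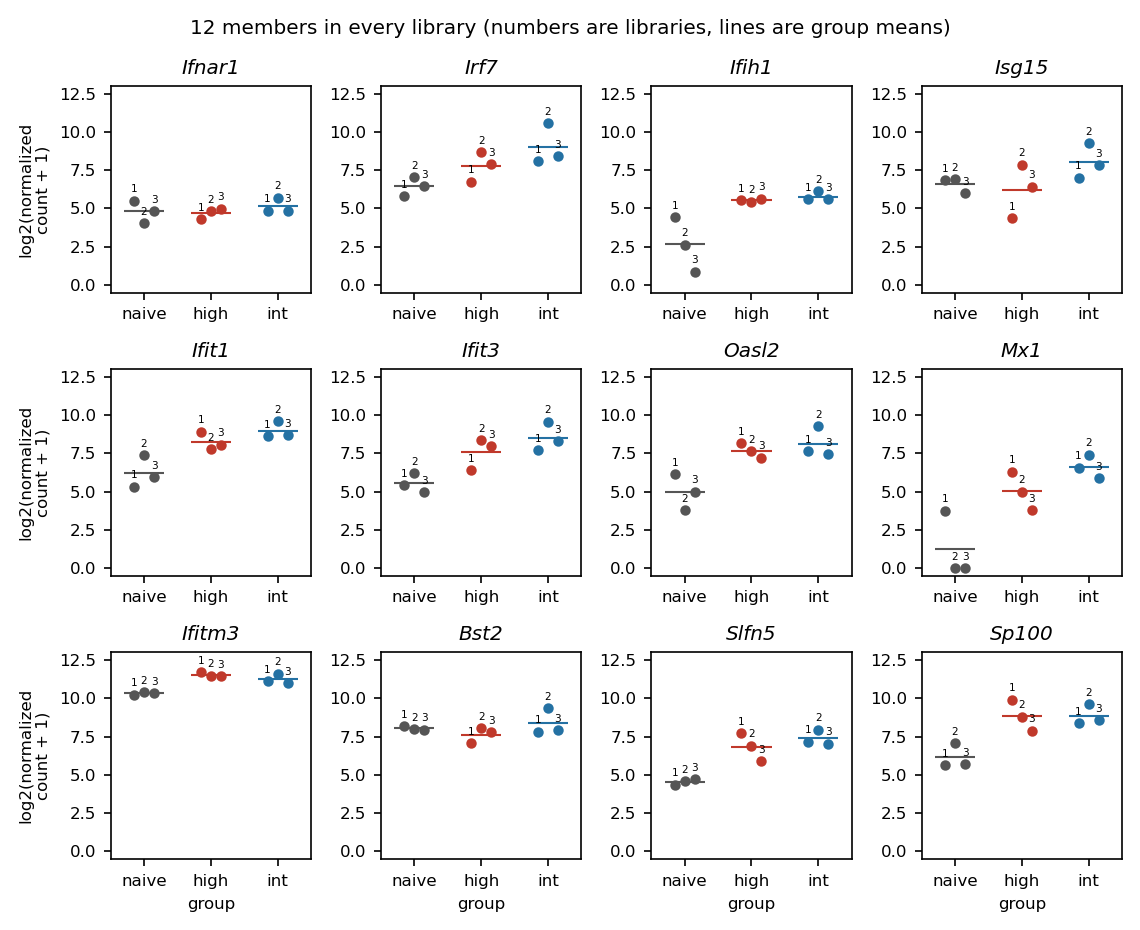
log2(normalized count + 1) of 12 members (vertical axes) in the naive, high and int libraries (horizontal axes), with each library as a numbered point and the group mean as a line. Ifih1, Ifit1, Oasl2, Slfn5 and Sp100 in high and int lie clear of naive, Ifnar1 and Bst2 overlap, and int library 2 is the top point of its group in every panel.

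The OAS genes encode synthetases of 2-5A, the messenger that activates RNase L, and OAS-like proteins, and they did not move as a block. Oasl2 (ENSMUSG00000029561.17; chromosome 5, 114896936 to 114912234) stood at 70.0, 13.03 and 30.9 in naive, 291, 202 and 148 in high and 198, 629 and 173 in int. Every tumour-bearing library was above every naive one, by 2.70 ± 0.64 in high (adjusted p = 0.0118) and 3.14 ± 0.64 in int (adjusted p = 0.00738), and both calls were kept when any 1 library was left out. Oas3 (ENSMUSG00000032661.9; chromosome 5, 120753098 to 120777661) stood at 27.5, 0 and 9.19 in naive, 19.7, 80.5 and 51.2 in high and 68.2, 243 and 60.1 in int. Int was above naive throughout and high library 1 was within the naive range, with fold changes of 2.75 ± 1.11 (adjusted p = 0.0796) and 3.93 ± 1.11 (adjusted p = 0.0288). Of the other 4, Oas1a was the only member whose high libraries were all below naive, at 17.2, 15.6 and 19.2 in naive, 0, 14.9 and 3.41 in high and 8.59, 64.0 and 14.2 in int. Its difference in high was -2.15 ± 1.04 (adjusted p = 0.132) and was called lower only without high library 2 (-3.12, adjusted p = 0.0344, where the other 8 removals gave no such call). Oas1g, Oas2 and Oasl1 were called in neither comparison, with fold changes of -0.59 to 1.02 in high and 1.21 to 2.66 in int. Oas1a and Oas1g share 57.6% and 54.7% of their 50-base stretches, and Oas1g had 8, 11 and 98 reads in naive, high and int. The int call of Oas3 was lost without naive library 2 or 3, without any 1 int library (log2 fold changes 2.57 to 4.29), without both high library 1 and int library 2 (3.30) and with no filter (adjusted p 0.0013 to 0.108 over all settings), and its high difference passed without naive library 1 (3.802, adjusted p 0.0372 to 0.237). Without naive library 2, Oas2 and Oasl1 were called in int (3.75 and 2.69), and so was Oasl1 without high library 1 and with edgeR and DESeq2.

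Mx1 had the largest limma fold change of the members in int with all 9 libraries and in each removal of 1 library except that of naive library 2, where Slfn4 led at 4.85. Mx1 (ENSMUSG00000000386.15; chromosome 16, 97447035 to 97462907), a GTPase that blocks influenza virus replication in mice with an intact gene, stood at 12.6, 0 and 0 in naive, 77.9, 31.02 and 12.8 in high and 94.5, 171 and 57.2 in int. All 11 naive reads were in library 1, and the lowest high library was just above it. The fold changes were 3.77 ± 1.05 in high (adjusted p = 0.0222) and 5.37 ± 1.05 in int (adjusted p = 0.00609). Mx2 (ENSMUSG00000023341.15; chromosome 16, 97535308 to 97560900), which GENCODE lists as a polymorphic pseudogene, had 0 reads in the naive libraries, 33 in high and 106 in int. Against a floor of 3 reads over the naive group it was at least 7.18-fold higher in high and at least 11.7-fold higher in int, where it was called (adjusted p = 0.0307), unlike in high (adjusted p = 0.102). Rsad2 (ENSMUSG00000020641.16; chromosome 12, 26442746 to 26456452), which encodes viperin, an enzyme that makes a chain-terminating nucleotide, stood at 55.0, 41.7 and 84.4 in naive, 208, 72.2 and 98.9 in high and 164, 485 and 216 in int. Int cleared the naive range and high library 2 did not, with fold changes of 0.97 ± 0.53 (adjusted p = 0.173) and 2.14 ± 0.53 (adjusted p = 0.0165). Cmpk2, the neighbour of Rsad2 that supplies its substrate, and the exonuclease Isg20 were called in neither, with int values of 0.97 ± 0.59 and 0.84 ± 0.55 (adjusted p = 0.26 and 0.293). Mx1 lost its high call without naive library 2 or 3 or high library 1 (log2 fold changes 3.15, 3.15 and 3.14), without both high library 1 and int library 2 (3.14), in a fit of only the groups compared and with edgeR (adjusted p 0.00623 to 0.0807 over all settings), and kept its int call in every removal. Rsad2 lost its int call without naive library 1 or 2 or int library 2 (2.103, 1.91 and 1.69, adjusted p 0.000583 to 0.0638). Mx2 lost its int call without any 1 naive or int library (3.47 to 4.18) and was called in high without high library 1 (3.68), without both libraries and with DESeq2.

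Membrane restriction factors stop virus at the cell surface or in endosomes, and of 4 only Ifitm3 was called. Ifitm3 (ENSMUSG00000025492.6; chromosome 7, 141009586 to 141010770), which keeps enveloped viruses in endosomes, stood at 1205, 1352 and 1294 in naive, 3328, 2859 and 2814 in high and 2239, 3118 and 2046 in int. The naive libraries were close together and every tumour-bearing library was above them, by 1.22 ± 0.25 in high (adjusted p = 0.00649) and 0.92 ± 0.25 in int (adjusted p = 0.0258). Bst2 (ENSMUSG00000046718.8; chromosome 8, 71534255 to 71537456), the gene of tetherin, which holds budding virus on the cell, stood at 291, 250.1 and 248 in naive, 134, 263 and 218 in high and 226, 658 and 238 in int. Apart from a low high library 1 and a raised int library 2 its libraries were alike, and the fold changes were -0.41 ± 0.44 (adjusted p = 0.485) and 0.32 ± 0.44 (adjusted p = 0.626). Ifitm1 and Ifitm2, close relatives of Ifitm3, had fold changes of 0.18 ± 0.42 and -0.33 ± 0.40 in high and 0.38 ± 0.42 and -0.26 ± 0.40 in int (lowest adjusted p = 0.538). Of the 50-base stretches of the Ifitm2 transcript, 48.5% occur in other genes, mostly the overlapping Gm45717, as do 10.0% of those of Ifitm3. The int call of Ifitm3 was lost without naive library 1 or 3 or any 1 int library (0.74 to 1.04), with no filter and with no variance trend (adjusted p 0.0013 to 0.0796 over all settings), and its high call was kept in every removal.

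Schlafen genes restrain viral translation and the growth of immune cells, and 3 of the 4 rose in both groups. Slfn5 (ENSMUSG00000054404.13; chromosome 11, 82951349 to 82964840) stood at 19.5, 23.4 and 25.1 in naive, 211, 119 and 58.9 in high and 144, 246 and 129.7 in int. The naive libraries lay within a few counts of each other and every tumour-bearing library was at least at 58.9, with fold changes of 2.29 ± 0.50 (adjusted p = 0.00835) and 2.83 ± 0.50 (adjusted p = 0.00382), both kept in every removal. Slfn4 (ENSMUSG00000000204.16; chromosome 11, 83175186 to 83190216), a gene of myeloid cells, stood at 0, 13.03 and 3.34 in naive, 41.7, 19.7 and 31.6 in high and 34.4, 115 and 52.5 in int. It had 9 reads in naive, every tumour-bearing library was above the highest naive one, and it rose by 2.96 ± 0.91 in high (adjusted p = 0.0321) and 3.94 ± 0.91 in int (adjusted p = 0.0128). Slfn8 rose by 2.33 and 3.22 (adjusted p = 0.0475 and 0.0172), also from 9 naive reads. Slfn2, needed for quiescence of T cells and monocytes, was called in neither, at -0.69 ± 0.83 in high and 1.70 ± 0.83 in int (adjusted p = 0.537 and 0.165). Slfn5 lies across from the antisense gene Slfn5os, and Slfn4 and Slfn8 share 11.1% and 15.4% of their 50-base stretches with other genes. The high call of Slfn4 was lost without naive library 1 or 3, high library 1 or 3 or int library 3 (log2 fold changes 1.97 to 3.03), without both high library 1 and int library 2 (2.72), with no filter and in a fit of only the groups compared (adjusted p 0.00748 to 0.091 over all settings), and its int call without int library 2 (3.47, adjusted p 0.000153 to 0.0549). Slfn8 lost its high call in 7 of the 9 removals (1.63 to 2.33), those of naive library 2 and high library 1 apart, and its int call in 5 (2.52 to 3.37). Slfn2 was called in int without high library 1 (1.70) and with DESeq2.

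The remaining 5 members, interferon-induced genes of varied function, rose in 4 of 5 cases in high and in all 5 in int. Sp100 (ENSMUSG00000026222.16; chromosome 1, 85649988 to 85709998), a component of nuclear bodies that restricts DNA viruses, stood at 48.2, 135 and 51.8 in naive, 962, 443 and 237 in high and 330.1, 782 and 381 in int. The 6 tumour-bearing libraries were all above naive, high library 1 highest, with nearly equal fold changes of 2.72 ± 0.58 (adjusted p = 0.00717) and 2.71 ± 0.58 (adjusted p = 0.00859). Trim30a (ENSMUSG00000030921.17; chromosome 7, 104409025 to 104465193), an E3 ligase that limits Toll-like receptor and inflammasome signals, stood at 18.4, 2.61 and 19.2 in naive, 118, 59.1 and 58.0 in high and 91.3, 248 and 106 in int. It too was above naive in all 6, by 2.74 ± 0.72 (adjusted p = 0.0171) and 3.59 ± 0.72 (adjusted p = 0.0066). Sp100 and Trim30a kept both calls in every removal, and Trim30a lost that in high in a fit of only the groups compared (adjusted p 0.000887 to 0.0504 over all settings). Ifi44 stood at 9.17, 0 and 0.840 in naive, on 9 reads, 218, 34.0 and 15.3 in high and 33.3, 107 and 45.9 in int. High library 1 was far above the others of its group, and Ifi44 rose by 4.24 ± 1.08 in high (adjusted p = 0.0157), by 3.17 without that library, and by 4.39 ± 1.08 in int (adjusted p = 0.0167). Rtp4, a chaperone of opioid receptors that also restricts viruses, rose by 1.496 and 1.80 (adjusted p = 0.0352 and 0.0215). Xaf1, a pro-apoptotic gene, was called in int (1.49 ± 0.48, adjusted p = 0.0486) and was at 1.24 ± 0.48 in high (adjusted p = 0.0714), where DESeq2 called it. Sp100 shares 8.67% of its 50-base stretches with other genes, and Rtp4 overlaps Masp1 and Gm45338. Among removals of 1 library, Ifi44 lost its high call without naive library 2 (3.53) and its int call in 4 (3.69 to 4.52), Rtp4 lost them in 5 (1.07 to 1.68) and 4 (1.44 to 1.87), and Xaf1 lost its int call in 7 (1.13 to 1.76).

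**Figure D3:**
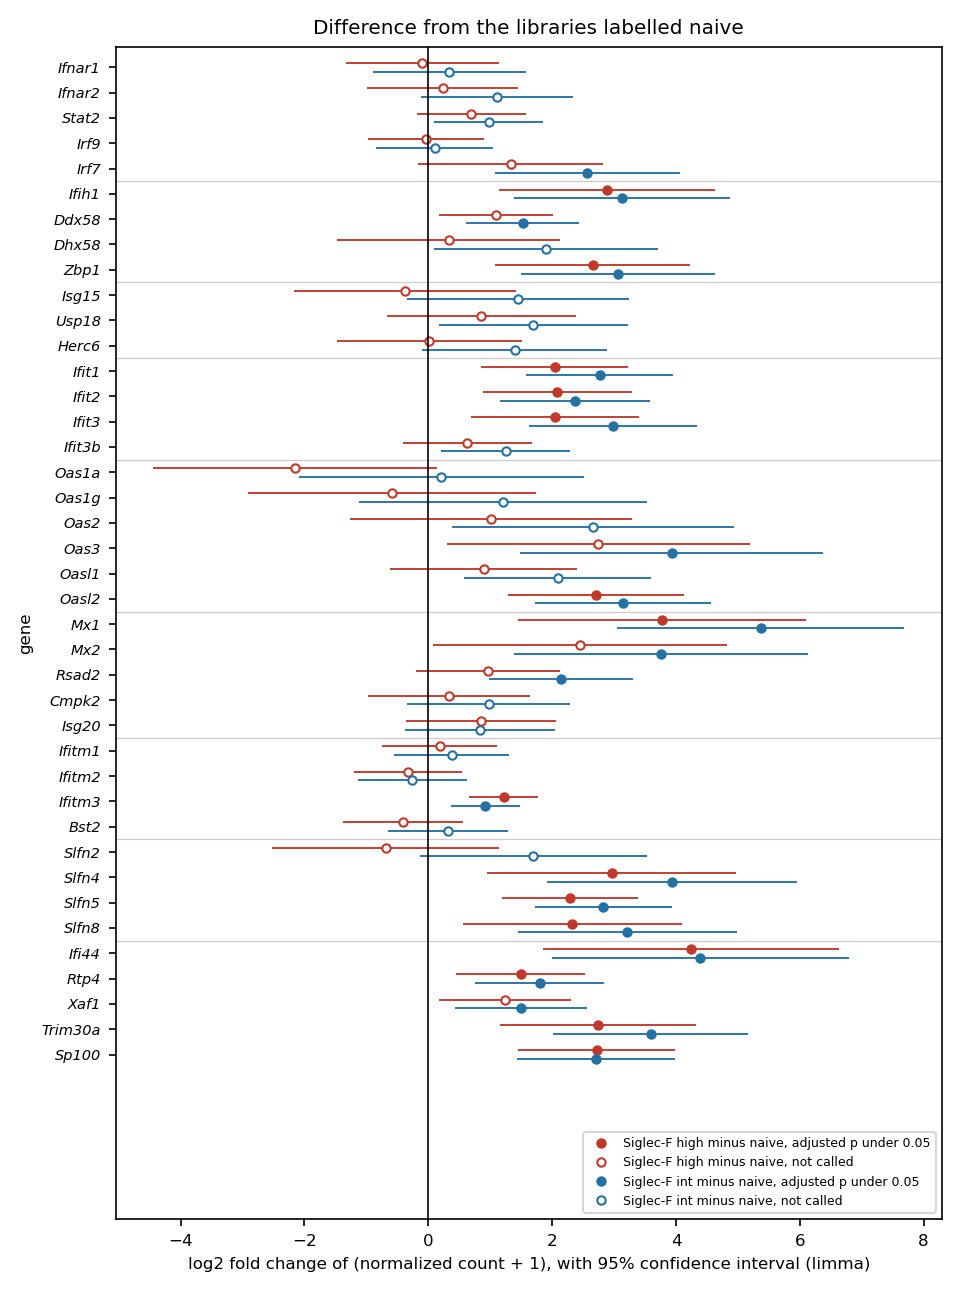
log2 fold changes of (normalized count + 1) against naive (horizontal axis) for the 40 members (vertical axis), red for high and blue for int, with limma's 95% confidence intervals as lines. Filled points passed an adjusted p of 0.05 (15 in high and 21 in int), and every filled point lies to the right of 0.

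High and int, sorted from the same kind of host, were not told apart by any member. None was called higher or lower by limma, which called 0.0% of all genes in either direction, nor by edgeR (0.0%) or DESeq2 (0.044%). At an unadjusted p below 0.05 limma passed 4 members, where 4.33% of all genes passed. These were Isg15, Oas1a, Rsad2 and Slfn2, named after their values were seen, each lower in high. Of the 40 fold changes of high minus int, 37 were below 0, with a median of -0.73 beside -0.08 over all genes. The libraries of high lay below those of int without overlap for 4 members, Ifnar2, Ddx58, Herc6 and Slfn2 (5.75% of all genes), and above for none (5.52%). The intervals of the differences were wide. For Ifitm3 the 95% interval ran from -0.25 to 0.86, for Slfn5 from -1.65 to 0.57, for Ifit1 from -1.91 to 0.46, for Sp100 from -1.26 to 1.28 and for Mx1 from -3.92 to 0.73. These bounds do not show equal levels. Without both high library 1 and int library 2 the median difference of the members was -0.17.

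Int library 2 held the highest value of its group in all 40 members, where 40.3% of all genes tested had their highest int value there. It was the highest of all 9 libraries in 36 members, against 10.4% of all genes. Its median distance above the mean of the other int libraries was 1.38 on the log2 scale for the members and 0.01 for all genes. The distance ran from 0.31 for Ddx58 to 2.58 for Oas1g, and it was 2.32 for Irf7. The members together took 0.402% of the reads of int library 2 (95% Wilson interval 0.398 to 0.406), 0.217% and 0.230% in int libraries 1 and 3, 0.174% to 0.245% in high and 0.0986% to 0.128% in naive. These intervals cover counting error only. High library 1 went both ways. It was the highest of its group for 17 members (42.5%, against 40.3% of all genes) and the lowest for 20 (50%, against 45.5%). It held the highest value of all 9 libraries for Ifitm3, Ifi44 and Sp100 (7.5% of members, against 25.9% of all genes). The lowest value was there for Dhx58, Isg15, Oas1a, Oas1g, Slfn2, Bst2 and Ifitm2 (17.5%, against 30.8%). These genes were picked out after their values were seen, and the shares were near or below those of all genes.

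Cell type markers moved with these patterns only in part. The 14 markers of monocytes and interstitial macrophages, cells that express many interferon-induced genes, were detected in every library and summed to 80402 normalized counts in int library 2, 18747 and 23016 in int libraries 1 and 3, 10089 to 21792 in high and 6965 to 9865 in naive. Of the 14, 7 rose in high and 10 in int, where 14.7% and 12.0% of all genes tested were called higher. Csf1r, the receptor that defines the lineage, fell outside the rule for naming. It stood at 169, 326 and 209 in naive, 703, 780.3 and 716 in high and 867, 2842 and 1067 in int. Its order of libraries within int was that of most members. In high, the summed list varied more than Csf1r did. The list stood at 10089, 21792 and 15858 in high libraries 1, 2 and 3, and the first of these was just above naive. Of 12 fibroblast markers 11 were tested, and 8 rose in high and 7 in int, with sums of 5700 to 7330 in naive and 23968 to 35718 in high, and int library 2 had the lowest sum of int (9809, against 25287 and 21292). Plasmacytoid dendritic cells are strong producers of interferon, and their 8 markers, of which 6 were tested, summed to 288 to 813 in naive, 970 to 1246 in high and 1347 to 1828 in int. Tcf4 and Spib rose in both comparisons (2.14 ± 0.33 and 2.69 ± 0.90 in high, 2.18 ± 0.33 and 3.30 ± 0.90 in int, adjusted p = 0.00176, 0.0427, 0.00205 and 0.0248) and Irf8 in int (1.76 ± 0.52, adjusted p = 0.0351). The other tested markers of this list were called in neither direction, and the median log2 fold change of the 6 was 0.36 in high and 0.50 in int. Of all genes tested, 14.7% were called higher in high and 12.0% in int. Klk1 was at 0 in naive and high and Spib in naive, and Siglech reached at most 9.38 in any library. Of 12 alveolar macrophage markers 2 rose in each comparison, near the share of all genes. No marker of neutrophils, lymphocytes, epithelium or endothelium was called higher in either. In each comparison 1 marker each of neutrophils, epithelium and endothelium was called lower. The part of these cells, of the pigment cell RNA and of depth in the differences between groups was not tested.

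**Figure D4:**
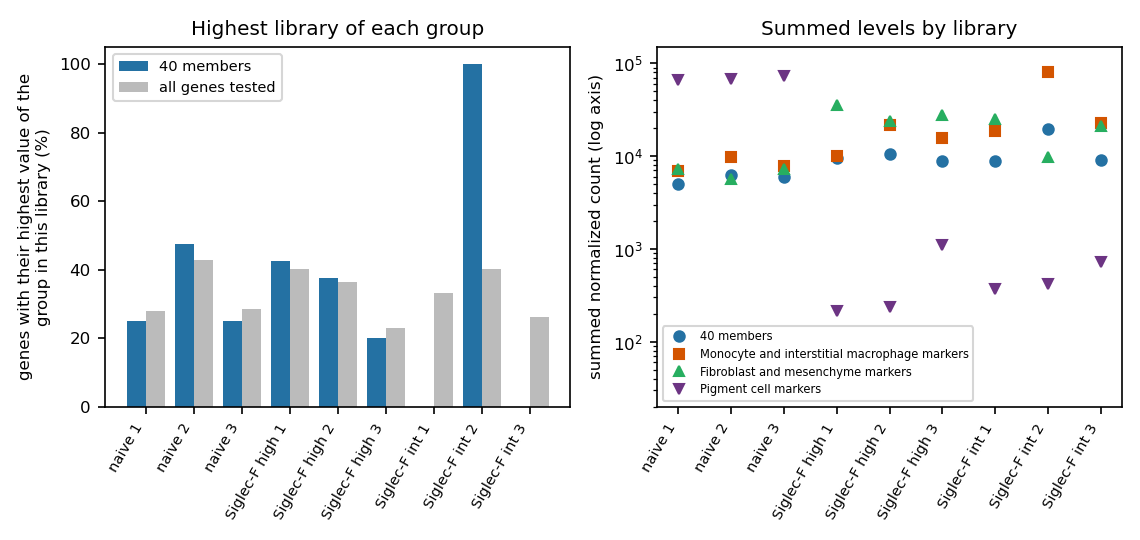
Left, the percentage of genes whose highest value of a group lay in each library (vertical axis) for the members and for all genes tested, with int library 2 at 100% of the members. Right, summed normalized counts (vertical log axis) of the members and of 3 marker lists in the 9 libraries, in which members and monocyte markers both peak in int library 2 and pigment markers are high only in naive.

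Left out of the fit, int library 2 changed the count in int. Without it, 7 members were called higher than naive in int (8.15% of all genes), namely Ifit1, Ifit3, Mx1, Oasl2, Slfn5, Sp100 and Trim30a, and each of these 7 was also called in every other removal of a single library. Zbp1, Ifit2 and Slfn4 lost their int call in that removal alone. In the same fit 14 members were called higher in high, so more were called in high than in int. Without both it and high library 1, int had 20 calls (15.1% of all genes), 19 of them among the 21, and high had 15 (13.7%), 12 of them among the first 15. In high, Ifitm3, Oasl2, Slfn5, Sp100 and Trim30a were called in every removal, and the fewest calls, 8, came without naive library 3. A fit of only naive and high also gave 8 (8.85% of all genes). In int, 13 and 12 members were called without naive library 3 and int library 3, and 25 without high library 1. edgeR on the recovered reads called 14 members in high (15.9% of all genes) and 24 in int (13.5%), and DESeq2 called 18 (19.7%) and 27 (16.2%).

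**Figure D5:**
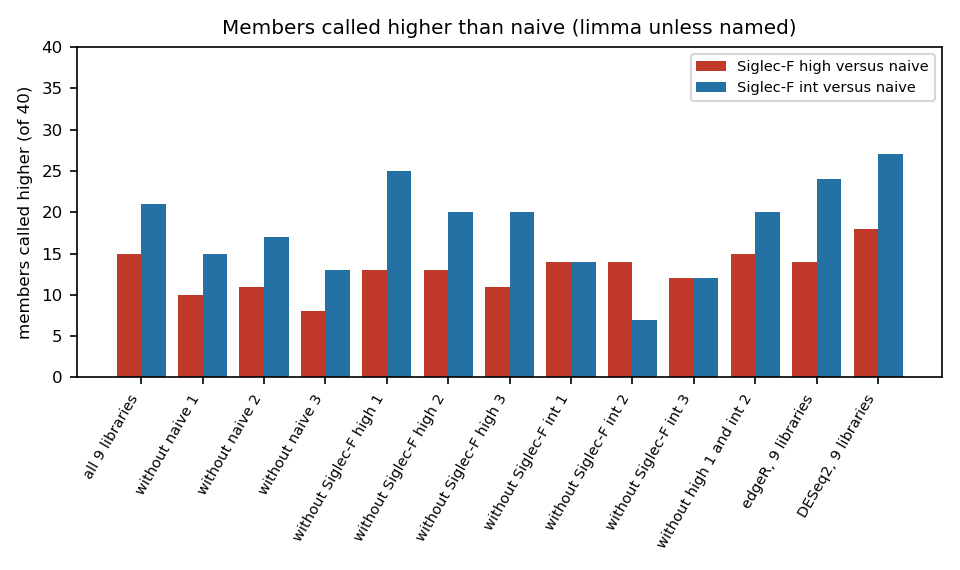
Members called higher than naive (vertical axis, of 40) with all 9 libraries, without each library or pair of libraries, and with edgeR and DESeq2 (horizontal axis), red for high and blue for int. The int count runs from 7 without int library 2 to 27 with DESeq2, and the high count from 8 without naive library 3 to 18 with DESeq2.

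The rest of the pathway was read from 4 lists. Of 20 genes of type I and type III interferons none reached the filter, and together they had 1 read in naive, 13 in high and 26 in int, with 19, 16 and 16 of them at 0. Ifnb1, interferon-beta, had 1, 6 and 18 reads, a read ratio of 3.91 for high (95% counting interval 0.475 to 180) and 5.97 for int (0.942 to 249). The ligands were thus near the limit of detection in these cells, and a difference was not detectable at this depth.

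Of 21 genes that lead to interferon production 20 were tested, and 3 rose and 1 fell in high while 6 rose in int, with medians of 0.04 and 0.85. Over all genes tested, 14.7% were called higher and 16.6% lower in high and 12.0% and 10.3% in int, so the counts in high were not above the background. Tlr7, the endosomal receptor of single-stranded RNA, stood at 0, 18.2 and 1.67 in naive, 50.5, 35.2 and 33.3 in high and 40.3, 111 and 60.7 in int and rose by 3.43 ± 0.95 in high (adjusted p = 0.0215) and 4.15 ± 0.95 in int (adjusted p = 0.0121). Tbk1, the kinase of Irf3 and Irf7, stood at 33.3, 23.4 and 53.5 in naive, 147, 107 and 130.5 in high and 115, 110.4 and 117 in int. Its int libraries were nearly equal, and it rose by 1.84 ± 0.40 (adjusted p = 0.00805) and 1.69 ± 0.40 (adjusted p = 0.0139). Mavs, the mitochondrial adaptor of RIG-I and MDA5, stood at 103, 154 and 76.0 in naive, 28.5, 22.7 and 27.3 in high and 51.5, 60.2 and 31.9 in int. It fell in high, at -1.99 ± 0.45 (adjusted p = 0.00979), and was at -1.18 ± 0.45 in int (adjusted p = 0.0852). Tlr7 lost its high call without naive library 1 or 3 (2.48 and 3.19), without both high library 1 and int library 2 (3.24) and in a fit of only the groups compared, and its int call without int library 2 (3.76). Tbk1 lost its int call without int library 1 or 3 (1.68 and 1.67), and Mavs passed in int without high library 1 (-1.18) and without both libraries (-1.37).

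Of 15 genes of JAK-STAT signalling and its brakes, 3 rose and 1, Tyk2, fell in high and 6 rose in int, with medians of 0.49 and 0.96. Beside the 14.7% higher and 16.6% lower of all genes in high, its counts were near the background, and in int 12.0% of all genes were called higher. Ifngr1, the ligand-binding chain of the interferon-gamma receptor, stood at 81.4, 78.2 and 64.3 in naive, 250.1, 251 and 255 in high and 216, 438 and 311 in int and rose by 1.75 ± 0.33 (adjusted p = 0.00443) and 2.04 ± 0.33 (adjusted p = 0.00259). Jak1, a kinase of both interferon receptors, stood at 272, 516 and 562 in naive, 1752, 965 and 1278 in high and 1074, 1079 and 1089 in int and rose by 1.59 ± 0.34 (adjusted p = 0.00727) and 1.33 ± 0.34 (adjusted p = 0.0187). Irf1, a factor induced by interferon-gamma and NF-kB, stood at 187, 148 and 112 in naive, 157, 1255 and 1067 in high and 1045, 829.6 and 1212 in int. High library 1 was within the naive range and the other 5 far above it, and Irf1 rose by 2.02 ± 0.65 (adjusted p = 0.0382) and 2.79 ± 0.65 (adjusted p = 0.0131). Unlike the members, Irf1 was lowest of int in library 2. Its high call was lost in 8 of the 9 removals, that of high library 1 apart (1.48 to 2.20), and in 3 further settings (adjusted p 0.000175 to 0.116 over all settings), and its int call without int library 3 (2.67). Jak1 lost its int call without naive library 1 or int library 1 or 3 (1.00, 1.34 and 1.33) and with no variance trend.

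Of 52 further interferon-induced genes 50 were tested, and 14 rose and 3 fell in high while 18 rose and 1 fell in int, with medians of 0.78 and 1.19. Of all genes tested, 14.7% were called higher and 16.6% lower in high, and 12.0% and 10.3% in int. Parp14, an ADP-ribosyltransferase, stood at 4.59, 5.21 and 7.52 in naive, 66.9, 63.2 and 55.4 in high and 58.0, 149.6 and 87.3 in int and rose by 3.23 ± 0.51 (adjusted p = 0.00176) and 3.79 ± 0.51 (adjusted p = 0.0011). Trim30d, a neighbour of Trim30a, had 1 read in naive, 182 in high and 388 in int, read ratios of 119 (counting interval 21.04 to 4715) and 129 (23.0 to 5095). Trim30d was called in both, and its int libraries were close together, at 52.6, 62.8 and 44.6. Ifi27 went the other way. It stood at 424, 448 and 444 in naive, 167, 206 and 159 in high and 118, 129 and 104 in int and fell in both, at -1.31 ± 0.28 (adjusted p = 0.00756) and -1.90 ± 0.28 (adjusted p = 0.00165). Adar and Uba7, an RNA editor and the E1 enzyme of ISG15, fell in high and were not called in int, and the difference between those changes was not tested. Ms4a4c of this list is also a monocyte marker, and Irf8 of the previous ones a marker of plasmacytoid dendritic cells.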

How the data were processed

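RNA of 9 libraries, 3 a group, was sequenced. Per the submitters' processing notes, TopHat2 2.1.0, HTSeq, DESeq2 1.10.0 and GRCm38 were used, and whether counting used the strand is not given in the sources used here. The deposited values are a signal, reads per gene divided by a size factor by the authors. Within 0.05 read, 100% of low values were whole reads. The main test was limma 3.58.1 on log2(value + 1) with a variance trend over all 9 libraries, for 13642 genes with a mean of at least 5, two-sided, with Benjamini-Hochberg adjusted p below 0.05 over all of them. edgeR 4.0.16 and DESeq2 1.42.0 ran on the recovered reads as alternatives. A further 63 rows named by dates (0.219% of the total) and rows that repeated another in full (116) or in name and values (130) stayed out. Tested on simulated data of the int and naive libraries (13642 genes), limma called 21.7% of the genes set 4-fold apart and 72% of those set 16-fold apart, and 4.1% of its calls were false. The simulation set far fewer genes apart than were called in the data and held no shift shared across genes within a library. Its rates therefore need not hold for the calls above. Positions are from GENCODE M21 and promoters from RefSeq. Members and lists were chosen with earlier results of these data known. Values are given in full for all signalling members, the 2 members of each other role with the smallest adjusted p, any member called lower or between high and int, and up to 3 called genes of each pathway list, with Irf1 always, and 1 further gene of that rule is not reported here. Alternatives were the pseudocount, filter, scaling, variance trend, fitted groups, replicate block, tool and left-out libraries. Removal of both high library 1 and int library 2 was chosen after seeing the data.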

Additional observations from a re-analysis of the deposited data

How the results depend on the processing

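Leaving out 1 library at a time gave 8 to 14 members called higher in high, 0 to 1 called lower and 7 to 25 called higher in int. A fit of only the groups compared gave 8 in high. Without both high library 1 and int library 2 the median of high minus int was -0.17. TMM scaling moved the median of all genes in int minus naive from -0.02 to 0.17 and equal totals to 0.23. The longer ISRE form was held by 10 members and the form with 3 bases between the runs by 6. Correlations of same-numbered deviations were -0.029 to 0.062 for pairs with naive and 0.072 to 0.14 for high with int. Differently numbered pairs of high and int gave -0.16 to -0.011. The library labels do not say whether high and int libraries of the same number share mice, and the main fit did not pair them. With a replicate block 16 and 22 members were called higher in high and int and 0 between them.

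None of the values that changed sign had been called. In high minus naive Ifnar1 was 0.0021, 0.034 and 0.023 with TMM, equal totals and quantile normalization and 0.11 without both libraries, and Irf9 was 0.068, 0.10, 0.12 and 0.13 with the same settings, 0.16 with edgeR and 0.094 with DESeq2. Without both libraries Herc6 was -0.31 in high minus naive, and Irf9 -0.31 and Bst2 -0.18 in int minus naive. In high minus int without both, Ifnar1 was 0.049, Stat2 0.041, Irf9 0.44, Irf7 0.049, Zbp1 0.17, Ifit3 0.18, Oas3 0.0046, Bst2 0.047, Irf1 0.040 and Sp100 -0.13, and Sp100 was -0.086, -0.12 and -0.025 with TMM, equal totals and quantile normalization and Trim30d 0.015 with the last. Over removals of 1 library, high minus naive ran from -0.47 to 0.26 for Ifnar1, -0.26 to 0.57 for Ifnar2, -0.26 to 0.13 for Irf9 and -0.49 to 0.62 for Herc6. Int minus naive ran from -0.036 to 0.69 for Ifnar1, -0.31 to 0.50 for Irf9 and -0.18 to 0.59 for Bst2. High minus int ran from -0.54 to 0.27 for Irf9, -0.84 to 0.18 for Zbp1, -0.78 to 0.15 for Oasl2, -0.51 to 0.50 for Sp100, -1.31 to 0.19 for Irf1 and -0.21 to 0.069 for Trim30d. The cause was not tested. Over the named genes and settings, 592 values in high minus naive kept direction and call, 45 lost and 3 gained a call and 20 changed sign. For int minus naive the counts were 616, 33, 5 and 6.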
